A study of Homo sapiens with 18 samples.

Results

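The comparison described here sets 2 groups of HAP1 cells against each other, both labelled as growing without doxycycline. The first was a SARS2-deleted line that also carried a transgene, SARS2 with 1 FLAG tag, and was sampled 6 days after the drug was taken away. The second was the unmodified parental line. Its members were chosen by those labels alone and amount to 6 of the 18 libraries of the series, 3 in each group, and every gene of the deposited count tables was considered. The 12 other libraries were parental cells with 15 ng/mL doxycycline and the deleted line with doxycycline or labelled 3 and 9 days without it. HAP1 is a near-haploid human cell line that grew out of a chronic myeloid leukaemia line. Per the series' design text, the study set cells expressing SARS2 against cells in which its expression was depleted for 3, 6 or 9 days.

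Several features limit what a difference between these groups can stand for. No source used here gives whether the deleted line was 1 clone or a pool, which bases were deleted, or how long the parental cells had been without the drug. Separate cultures are not named for the replicates either. The p-values therefore reflect the spread of these libraries alone, which may be technical. The lines differ in the transgene and possibly in their history as well as in SARS2, and these cannot be told apart with 2 lines. For that reason the same line difference in the presence of doxycycline, from 6 libraries that this comparison does not use, is given beside most results.

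SARS2 is the mitochondrial seryl-tRNA synthetase, an enzyme encoded in the nucleus that charges the serine tRNAs of mitochondria and so feeds protein synthesis inside the organelle. When that synthesis fails, the respiratory chain loses its mitochondrially encoded subunits, and many cultured cells answer through phosphorylation of eIF2alpha. This favours translation of the transcription factor ATF4, which switches on genes of amino acid transport, serine synthesis, tRNA charging and secreted stress factors such as GDF15.

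Depth ranged from 79576230 to 96123623 counts in the 6 libraries, with 26429 to 27382 genes detected. Levels are CPM, the counts of a gene scaled to a common library size, and differences are log2 fold changes of the day 6 deleted line over the parental line with their standard error (SE). Calls were made where the adjusted p fell under 0.05 in edgeR's quasi-likelihood test with Benjamini-Hochberg adjustment over 21615 genes. The common dispersion corresponds to a coefficient of variation of 0.12. Parental replicate 3 stood apart from its group: the chi-square per gene was 69.5 and 86.6 against replicates 1 and 2, and 21.1 between those 2. Within the day 6 group it was 11.1 to 32.6. No pair agreed within sampling noise, and each library was counted as a replicate. This spread does not show whether the libraries came from separate cultures.

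The targeted gene came first. SARS2 (chromosome 19, 38915266 to 38930763, minus strand, GRCh38) was at 36.6, 40.4 and 42.6 CPM in the parental libraries and at 23.2, 25.8 and 25.02 CPM in the day 6 libraries. All 3 day 6 values lay below all 3 parental values. The difference was -0.69 ± 0.10 (SE, adjusted p = 2.4e-05). With doxycycline the same line difference was -0.87, and the difference between the 2 was 0.18 (adjusted p = 0.41). The deleted line averaged 24.2 CPM with doxycycline and 31.6 and 41.8 CPM in the libraries labelled day 3 and day 9. A loss of SARS2 RNA over the 6 days was therefore not seen in these libraries, and reads of the transgene cannot be told apart from reads of the deleted locus. Below, day 6 libraries means libraries labelled so, and directions rest on the labels.

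Genes beside SARS2 gave no call in the comparison without the drug. MRPS12, a mitochondrial ribosomal protein gene that starts next to SARS2 on the other strand, gave -0.05 (adjusted p = 0.84), NFKBIB 0.17 (0.35), CCER2 -0.41 (0.25), SIRT2 -0.17 (0.066) and FBXO17 0.01 (1.0). SIRT2, a deacetylase, became a call without parental replicate 1 (adjusted p = 0.024) and with trends in GC content, gene span and exon length removed (-0.34, adjusted p = 0.0015). With doxycycline 4 of the 5 neighbours were called, MRPS12 (-0.55), NFKBIB (-0.72) and SIRT2 (-0.36) lower and CCER2 (0.98) higher. Over all tested genes 33.8% were called without and 19.3% with the drug. The difference between the 2 line differences was called at NFKBIB (0.89, adjusted p = 0.0057) and CCER2 (-1.38, 0.022). It was not called at MRPS12 (0.51, 0.11), SIRT2 (0.19, 0.22) or FBXO17 (-0.83, 0.61). Parental replicate 3 was the lowest of its group at MRPS12 (29.5, 34.3 and 21.9 CPM) and NFKBIB (42.9, 47.7 and 27.9 CPM). The count columns carry the alignment tag HISAT2_RF in their names, but the strand setting of the counting itself is not given, so reads of SARS2 and its divergent neighbour may not be fully separated.

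**Figure D1:**
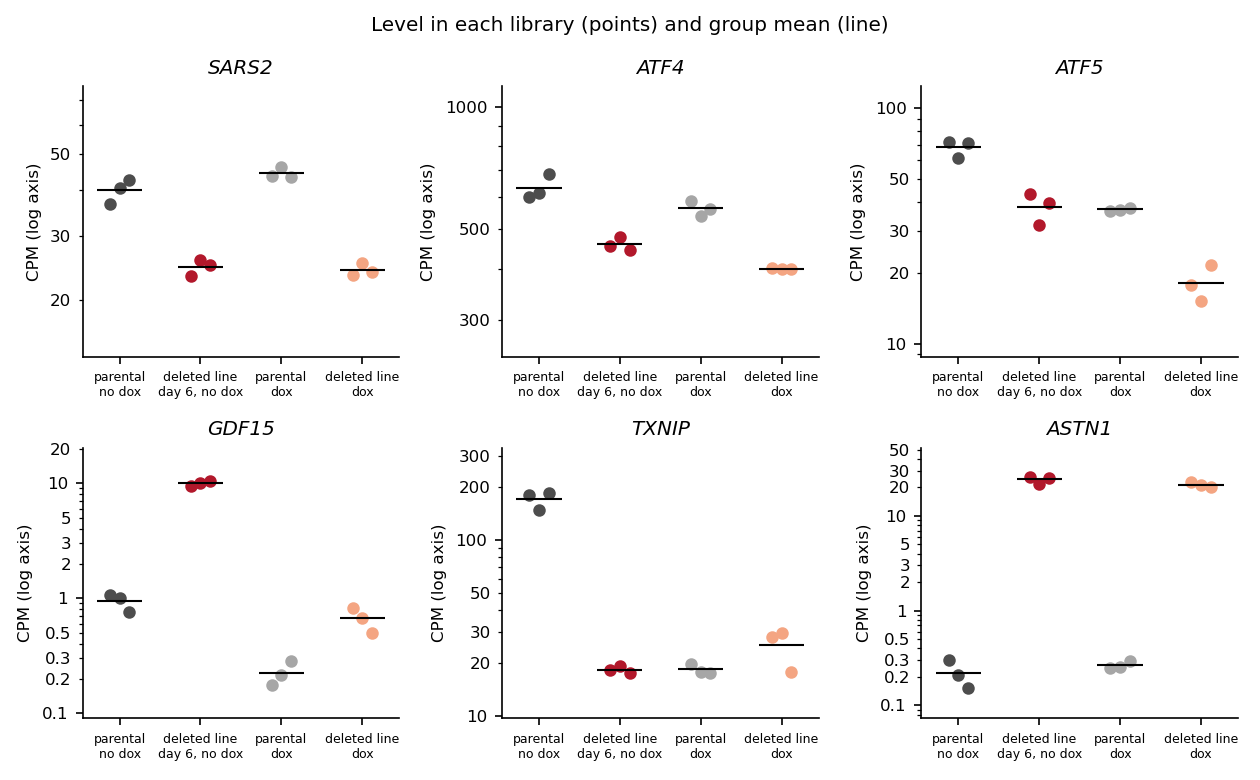
CPM of 6 genes in each library (points, log axis) with the group mean (line), for the parental and deleted lines without and with doxycycline, n = 3 per group. SARS2, ATF4 and ATF5 were lower in the deleted line in both settings, ASTN1 was near 0.2 CPM in parental and over 20 CPM in deleted-line libraries, and TXNIP was above 140 CPM in the parental libraries without doxycycline and at most 29.6 CPM elsewhere.

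Across the transcriptome the lines differed at many genes. Of 21615 genes tested, 7306 were called (33.8%), 3381 higher (15.6%) and 3925 lower (18.2%) in the day 6 deleted line. Among them, 778 were higher and 759 lower by at least 2-fold. The median over all genes was -0.01. The higher share of the calls was 46.3%, but 53.6% with library size alone as the scaling and 50.6% with GC, span and length trends removed or with only the compared groups in the fit, so neither direction prevailed throughout. With doxycycline, 4171 genes were called (19.3%), 2015 higher (9.32%) and 2156 lower (9.97%). Counts of list members below are to be read against these shares. The order of these totals depended on which libraries were in the fit: with only the compared groups in each fit, 5702 genes were called without and 7336 with doxycycline. That refit also repeated the filter and scaling, and the reason for the reversal was not tested.

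A part of the line difference was present in both drug settings. In both comparisons 2130 genes were called in the same direction, 981 higher and 1149 lower. These were 29.2% of the calls without and 51.1% of the calls with doxycycline. Another 161 were called in opposite directions. The 2 comparisons share no library, only the estimate of spread. Spearman's rho between the 2 sets of fold changes was 0.40 across 14649 genes with a mean of at least 1 CPM over the 6 libraries, and genes are no independent replicates. The difference between the line differences was itself called at 2729 genes (12.6%), 5.49% of all tested in the positive and 7.14% in the negative direction, and of these 2079 genes were among the 7306.

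**Figure D2:**
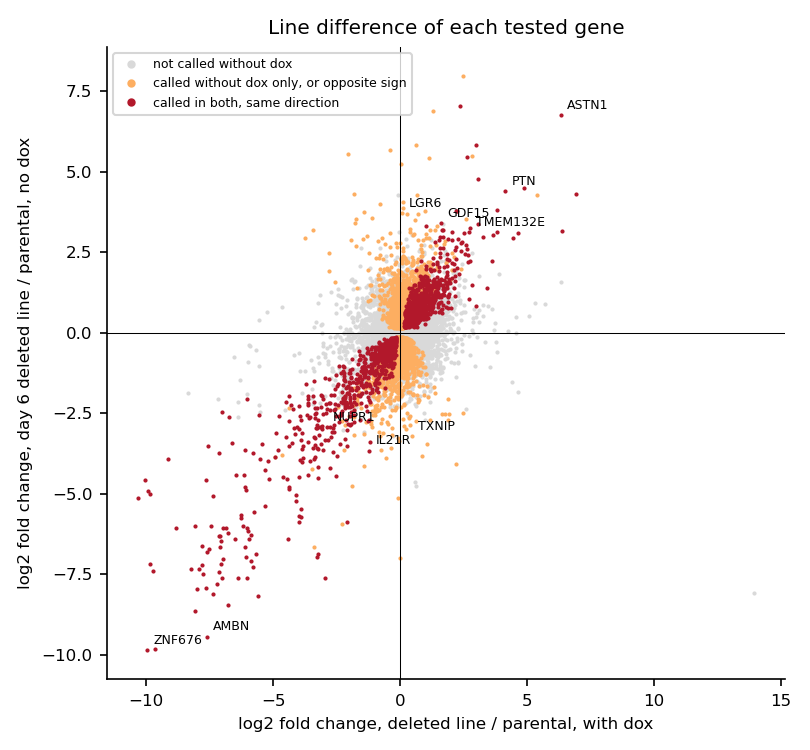
Log2 fold change of the deleted line over the parental line with doxycycline (x) and at day 6 without it (y), each point a tested gene, grey where not called at day 6 and orange where called there only or with the opposite sign. Genes called in both in the same direction (dark red) run along the diagonal from ZNF676 and AMBN to ASTN1, while TXNIP and LGR6 lie near 0 on the x axis.

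Among the largest differences were near-complete gains and losses of single genes that the deleted line also showed with the drug. Of the 10 largest gains, 8 were called in the comparison with doxycycline and 6 differed from it in size, and of the 10 largest losses 10 and 3. The gains of LGR6 (3.71) and PRR35 (3.14) were not called with the drug (0.09 and 0.38). ASTN1 (chromosome 1, 176857321 to 177164712, minus strand), which encodes astrotactin 1, a membrane protein of migrating neurons, was at 0.304, 0.208 and 0.151 CPM in the parental libraries and at 25.4, 21.9 and 25.2 CPM at day 6. The groups were far apart, with a difference of 6.77 ± 0.16 (adjusted p = 8.7e-16) without and 6.33 with doxycycline. PTN (chromosome 7, 137227341 to 137343733, minus strand), the secreted growth factor pleiotrophin, went from 0.489, 0.481 and 0.636 to 11.7, 11.4 and 10.9 CPM (4.39 ± 0.13, adjusted p = 2.3e-14, and 4.14 with doxycycline). TMEM132E, a transmembrane protein, was at 3.49 to 5.69 CPM in parental and 39.8 to 40.3 CPM in day 6 libraries (3.12, and 2.73 with doxycycline). SYNDIG1, CSRP1 and the receptor tyrosine kinase AXL followed the same pattern, at 3.09, 2.60 and 2.71 without and 4.66, 2.64 and 2.60 with the drug.

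Losses went further, down to no counts at all. AMBN (chromosome 4, 70592256 to 70607288, plus strand), the enamel matrix protein ameloblastin, was at 6.07, 5.42 and 6.53 CPM in the parental libraries and at 0, 0.022 and 0 CPM at day 6. That was 1659 counts against 2, a ratio of 830.3 with a 95% counting interval of 229.5 to 6862. TCEAL9 (chromosome X, 103356506 to 103358462, plus strand) was at 1.44, 0.744 and 1.596 CPM in parental libraries and had 0 counts in every day 6 library, which puts it at least 116-fold lower against a floor of 3 counts over the group. Both were called in the same direction with doxycycline (-7.61 and -9.64 as fitted). Fitted fold changes of genes at or near 0 counts depend on the prior count and are no bound.

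A simple rule set after seeing the values collected such genes: at least 0.5 CPM in every parental library and at most 0.1 CPM in every day 6 library. It held for 26 genes, and 19 of them met the same rule between the lines with doxycycline. All 26 were called in the same direction there. Among them were the transketolase-like TKTL1, the meiosis gene MEIOB, the RNA-binding protein LIN28A, the T-box factor TBX18, the sodium channel SCN4A, and PPARGC1A, a coactivator of mitochondrial gene expression. PPARGC1A was at 0.630, 0.963 and 0.679 CPM in parental and 0.0718, 0.0878 and 0.0295 CPM in day 6 libraries (-3.58 ± 0.55, adjusted p = 5.5e-05, and -3.27 with doxycycline). The reverse rule held for 3 genes, ADGRG3, LINC01775 and SYTL1, none of which met it with the drug.

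Of the 26, 18 had an entry in the RefSeq promoter table (GRCh38.p14), and the 250 bases before the start site were low in CG. The ratio of observed to expected CG had a median of 0.474 in them and 0.797 over 14347 tested genes with an entry, and 27.8% against 73.9% reached 0.6. These sets were not matched for expression level. Of the 18, 6 were zinc finger genes, and 4 of those share a promoter run given below. The promoter of TCEAL9 (chrX:103356256-103356505, plus strand) is printed as an example of a gene counted in every parental and in no day 6 library, with each CG in capitals. It holds 8 CG at a ratio of 0.484.
TCEAL9: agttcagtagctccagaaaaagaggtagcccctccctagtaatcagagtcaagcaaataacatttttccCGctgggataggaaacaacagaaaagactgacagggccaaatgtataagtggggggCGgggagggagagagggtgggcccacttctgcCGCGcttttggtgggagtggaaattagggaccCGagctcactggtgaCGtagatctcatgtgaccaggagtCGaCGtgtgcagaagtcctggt

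Zinc finger genes were 7 of the 26: ZNF43, ZNF90, ZNF141, ZNF257, ZNF486, ZNF544 and ZNF676. Most genes of this naming encode proteins that bind DNA through arrays of zinc fingers, and many carry a KRAB domain and silence transposable elements. As a class they had no common direction: of 476 tested genes named ZNF, 109 were higher, 104 lower, and the median was -0.01, with both counts above the 15.6% and 18.2% of all tested genes. But 5 of the 7 lie in a single cluster on chromosome 19, between 20078000 and 22260304. All 17 tested genes named ZNF between those bounds (18 were in the tables) are given here, and because the bounds come from the lost genes their count is a description.

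The cluster split by expression level. Its 11 weakly expressed members, ZNF90, ZNF486, ZNF737, ZNF66, ZNF85, ZNF430, ZNF714, ZNF43, ZNF208, ZNF257 and ZNF676, averaged 0.0906 to 2.94 CPM in parental libraries and 0 to 0.105 CPM at day 6. ZNF208, the highest of them, was at 2.68, 2.62 and 3.53 CPM in parental and 0.132, 0.0659 and 0.118 CPM in day 6 libraries (-4.79 ± 0.33, adjusted p = 5.3e-09, and -6.11 with doxycycline). ZNF676 was at 1.39, 0.810 and 1.66 CPM in the parental line and at 0 counts in every day 6 library, at least 119-fold lower. All 11 were called lower, without and with the drug.

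The 6 strongly expressed members follow each other along the cluster, from ZNF431 to ZNF100, and none was off in the deleted line. ZNF431 averaged 24.3 CPM in parental and 24.5 CPM in day 6 libraries (0.01, adjusted p = 0.94). ZNF738, ZNF708, ZNF429 and ZNF100 gave -0.15, -0.18, 0.13 and -0.09, none of them called, and ZNF493 was lower by a small amount (-0.48, adjusted p = 0.0006). These genes are near-identical copies in part, and no source used here says how reads that fit several of them were counted, so the values of single members are uncertain.

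Promoters of the lost zinc finger genes shared sequence. Among the 6 with an entry, the longest run common to 4 was TGGAAACCGTCCAATCA, 17 bases, found on either strand in 7 of 14347 tested promoters (0.0488%). All 7 belonged to genes named ZNF. Of these, 4 are the lost genes the run was taken from, and 2 of the other 3 were called lower. A shorter run, TCCAATCAG, was common to 5 of the 6 and present in 137 tested promoters (0.955%), 60 of them of ZNF genes. Windows of 30 bases with the 17-base run in capitals follow, printed to show how alike these promoters are, and a match is a description of letters, not of a bound factor.
ZNF90 (chr19:20077931-20077960, plus strand): ctgggtTGGAAACCGTCCAATCAtgcaggc
ZNF486 (chr19:20167141-20167170, plus strand): ctgggcTGGAAACCGTCCAATCAggcaggc
ZNF43 (chr19:21836227-21836256, minus strand): ctgggcTGGAAACCGTCCAATCAggcacgg
ZNF257 (chr19:22052416-22052445, plus strand): ctgggcTGGAAACCGTCCAATCAgacacga

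**Figure D3:**
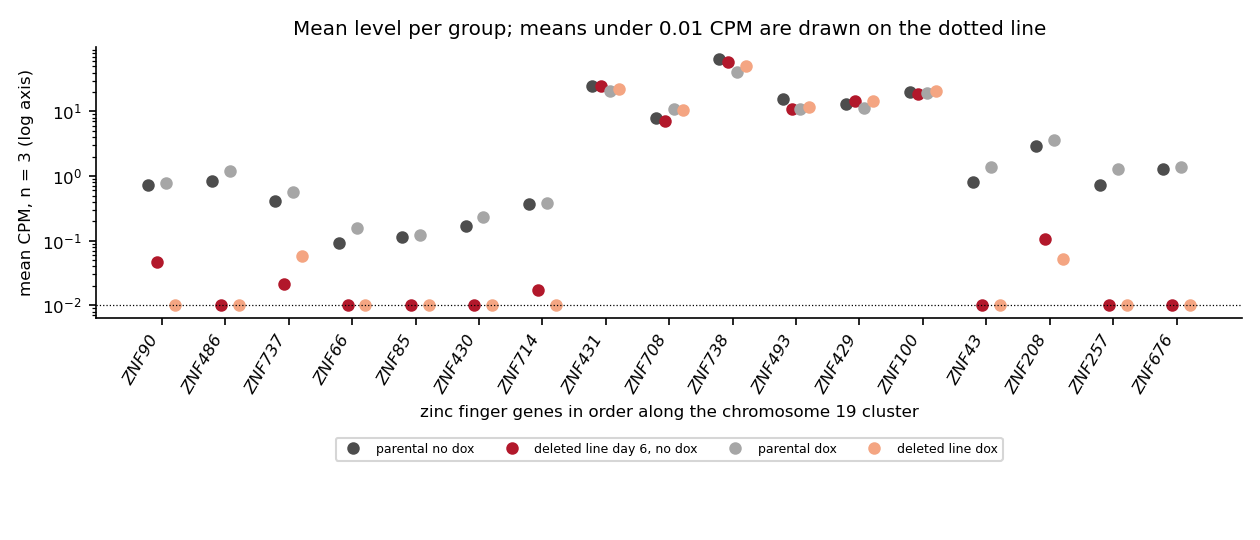
Mean CPM (n = 3, log axis) of the 17 tested zinc finger genes of the chromosome 19 cluster in genomic order, by line and drug. The 11 weakly expressed genes lie near the floor in the deleted line in both settings, while ZNF431 to ZNF100 lie between 7.08 and 64.0 CPM in both lines.

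The stress programme that follows from failing mitochondrial translation in many cells was not higher as a group in the deleted line. Of 43 ATF4 targets, 4 were higher and 21 lower, with 18 not passing and a median of -0.16. With doxycycline 2 were higher and 27 lower, and the median was -0.39. At day 6, 23 of the 43 lay below and 6 above the parental range without overlap, where 44.1% of all tested genes had groups that did not overlap. ATF4 itself (chromosome 22, 39520559 to 39522686, plus strand) was at 602, 614 and 685 CPM in parental and 454, 480 and 444 CPM in day 6 libraries. The groups did not overlap, with a difference of -0.46 ± 0.06 (adjusted p = 1e-05) without and -0.49 with doxycycline. ATF5, a related factor linked to the mitochondrial unfolded protein response, was at 71.9, 61.3 and 71.4 against 43.2, 31.9 and 39.4 CPM (-0.84 ± 0.12, adjusted p = 3e-05, and -1.03 with doxycycline). DDIT3, which encodes the stress factor CHOP, gave -0.08 (adjusted p = 0.64).

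GDF15 went the other way. This gene (chromosome 19, 18386158 to 18389176, plus strand) encodes a secreted factor that is used as a blood marker of mitochondrial disease. It was at 1.07, 1.01 and 0.755 CPM in the parental libraries and at 9.47, 10.04 and 10.4 CPM at day 6, so the groups lay far apart. The difference was 3.40 ± 0.32 (adjusted p = 3.1e-07) without and 1.59 with doxycycline, where GDF15 averaged 0.225 CPM in parental and 0.669 CPM in deleted-line libraries. The 1.80 between these 2 line differences was called (adjusted p = 0.026). INHBE, which encodes an inhibin beta subunit, was at 6.98, 6.16 and 8.84 against 14.5, 12.1 and 14.9 CPM (0.91 ± 0.26, adjusted p = 0.0099), against -0.51 with doxycycline, not called. The other members called higher were the mitochondrial folate enzyme ALDH1L2 (0.88, adjusted p = 0.020) and the phosphatase subunit PPP1R15A (0.23, adjusted p = 0.043). ALDH1L2 lost its call without parental replicate 1 (0.73), day 6 replicate 1 (0.77) or day 6 replicate 3 (0.84). PPP1R15A lost it without parental replicate 1 (0.23), parental replicate 2 (0.21) or day 6 replicate 2 (0.14). The call was also lost with no low-count filter, a replicate block or only the compared groups in the fit. With span and length trends removed PPP1R15A gave 0.20, and with GC content added to these 0.07, neither called.

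Lower members covered several branches of the response. DDIT4, an inhibitor of mTORC1, was at 150, 152 and 158 CPM in parental and 40.1, 46.0 and 42.9 CPM in day 6 libraries (-1.83 ± 0.15, adjusted p = 4.1e-08). CHAC1, which degrades glutathione, went from 76.0, 73.3 and 81.9 to 32.5, 27.0 and 31.6 CPM (-1.34 ± 0.13, adjusted p = 3e-07). NUPR1, a small stress-induced chromatin protein, was at 8.58 to 10.8 against 1.09 to 1.64 CPM (-2.93), the widest gap among the lower members. CTH (-0.75) and CARS1 (-0.56), for cysteine synthesis and cysteinyl-tRNA charging, the serine synthesis gene PSAT1 (-0.49) and the amino acid transporter SLC7A5 (-0.34) were lower too. All of these were also lower with doxycycline, by -1.36, -0.84, -2.89, -0.48, -0.47, -0.65 and -0.75 in the order named. ASNS (-0.08), TRIB3 (0.12) and SLC7A11 (-0.16), often taken as reporters of ATF4 activity, were not called.

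The difference between line differences was called at 10 of the 43, all towards a higher day 6 value, and did not pass at 33. Its median over the 43 was 0.20. Beside these values, the parental line itself held more of these transcripts without than with doxycycline: the summed level of the 43 genes was 7025 to 7484 CPM without and 5483 to 5740 CPM with it, against 6221 to 6338 CPM at day 6 and 4188 to 4454 CPM in the deleted line with the drug. Of 17 kinases and relay factors around eIF2alpha, 1 was higher and 9 lower (median -0.18), and 8 lower with doxycycline. They included EIF2B2 (-0.47), a subunit of the exchange factor, PPP1R15B (-0.51), which serves in eIF2alpha dephosphorylation, and OMA1 (-0.41) and DELE1 (-0.19), which carry the signal out of mitochondria. Removing trends with GC content, gene span and exon length from each library, an alternative chosen after seeing the data, left 5 lower and none higher in that list (median -0.08).

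To show the binding sequence this programme is known for, the 300 bases from 250 before to 50 after each start site (RefSeq, GRCh38.p14) were searched on both strands for TGATGNAA, whose reverse complement is TTNCATCA. It was found in 8 of 35 ATF4 targets with an entry (22.9%) and in 269 of 14347 tested genes (1.87%). Among the 18 lower members with an entry, 3 held it, and neither of the 2 higher members did. The windows below hold the match in capitals, and pair 3 targets that were lower with 2 that were not called. A window without these letters says nothing on whether the factor binds.
CHAC1 (chr15:40953251-40953280, plus strand, lower): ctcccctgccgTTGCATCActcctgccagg
CARS1 (chr11:3057407-3057436, minus strand, lower): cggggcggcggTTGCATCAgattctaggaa
ATF3 (chr1:212565205-212565234, plus strand, lower): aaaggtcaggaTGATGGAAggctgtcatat
ASNS (chr7:97872458-97872487, minus strand, not called): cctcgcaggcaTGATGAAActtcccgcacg
AARS1 (chr16:70289675-70289704, minus strand, not called): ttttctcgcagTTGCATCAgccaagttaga

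In the lists of nuclear genes for mitochondrial protein synthesis, most members were not called, and more were called lower than higher. Among 22 mitochondrial tRNA synthetases and amidotransferase subunits, 2 were higher and 7 lower (median -0.09), and 6 lower with doxycycline. Over all tested genes 15.6% were higher and 18.2% lower, and 9.97% lower with doxycycline. SARS2 and MARS2, the mitochondrial methionyl-tRNA synthetase, were the lowest. MARS2 was at 42.5, 44.0 and 50.1 against 30.6, 27.9 and 27.7 CPM (-0.66 ± 0.09, adjusted p = 2.1e-05), and at -0.65 with doxycycline. QRSL1 (0.31) and NARS2 (0.27) were higher, the latter not without parental replicate 3 (0.19, adjusted p = 0.15), day 6 replicate 2 (0.25) or day 6 replicate 3 (0.30). Of 23 cytosolic synthetases, 1 was higher (VARS1, 0.23) and 10 lower (median -0.17), and 1 and 14 with doxycycline.

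The mitochondrial ribosome had 31 of 79 proteins lower and 1 higher (median -0.15), and 16 lower with doxycycline. MRPL48 was at 47.1, 43.3 and 51.0 against 30.4, 26.7 and 28.1 CPM (-0.73 ± 0.07, adjusted p = 6.7e-07), followed by MRPS18A (-0.64), MRPL39 (-0.52) and MRPS18B (-0.46). The single higher member, MRPL12 (0.36, adjusted p = 0.045), had overlapping groups and lost its call with the GC, span and length trend removed (0.06) and without parental replicate 3 (0.16). Its call was also lost without parental replicate 1 (0.38), day 6 replicate 1 (0.29) or day 6 replicate 3 (0.36). The same held with a replicate block (0.36) or only the compared groups in the fit (0.38). The count of lower members was 18 without day 6 replicate 3. Among 33 factors for mitochondrial transcription, translation and DNA, 2 were higher and 13 lower, and 7 lower with doxycycline. FASTKD5, which takes part in mitochondrial RNA processing, was at 44.9, 44.0 and 48.0 against 19.2, 14.7 and 17.3 CPM (-1.42 ± 0.09, adjusted p = 2.5e-09, and -0.63 with doxycycline). MTERF1, a mitochondrial termination factor, followed at -1.02. The higher ones were GTPBP3 (0.60) and the mitochondrial RNA polymerase POLRMT (0.49). POLRMT was at 101, 114 and 63.8 against 129, 132 and 129 CPM, with parental replicate 3 the lowest. It lost its call with the GC, span and length trend removed (0.13, adjusted p = 0.17) or only the compared groups in the fit (0.51, adjusted p = 0.072).

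Respiratory chain genes were mostly lower without doxycycline, and few were with it. Of 37 nuclear complex I genes, none was higher and 23 were lower (median -0.27), against 5 higher and 1 lower with the drug (median 0.01). For complexes II to V, 33 of 40 were lower and none higher (median -0.34), against 3 lower and none higher with the drug (median -0.03). NDUFA8 was at 78.5, 77.7 and 84.5 against 56.2, 51.1 and 54.4 CPM (-0.57 ± 0.07, adjusted p = 2.2e-06). ATP5MJ, a small subunit of ATP synthase, was at 91.6, 79.2 and 81.5 against 51.7, 53.1 and 44.5 CPM (-0.76 ± 0.09, adjusted p = 6.1e-06). UQCRC2 of complex III and SDHD of complex II gave -0.39 and -0.53.

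The difference between the 2 line differences was called at 13 complex I genes and 23 genes of complexes II to V, all towards a lower day 6 value. The 23 lower members of complex I became 15 without day 6 replicate 3. Of 23 genes of the tricarboxylic acid cycle and pyruvate entry, 18 were lower and none higher (median -0.29), and 8 lower and 3 higher with doxycycline. PDHA1, the first subunit of pyruvate dehydrogenase, was at 446, 458 and 504 against 353, 344 and 346 CPM (-0.43, adjusted p = 4.8e-06, and -0.25 with doxycycline). Genes of the mitochondrial chromosome had 0 counts in every library and were not analysed here.

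Cholesterol synthesis, with some of its regulators, had the lowest median of the lists described here other than the zinc finger cluster. Of 23 tested genes, 18 were lower and none higher (median -0.72), while with doxycycline 1 was higher and 2 were lower (median 0.09). FDPS (chromosome 1, 155308866 to 155320665, plus strand), which makes farnesyl diphosphate, was at 357, 370 and 390 CPM in parental and 172, 207 and 179 CPM in day 6 libraries. The groups did not overlap, at -0.999 ± 0.067 (adjusted p = 4e-09), against 0.09 with the drug, and the difference of -1.09 was called (adjusted p = 2.2e-06). LSS (-0.95), DHCR7 (-0.86) and NSDHL (-0.81), later enzymes of the pathway, were lower as well. The difference between line differences was called at 16 of the 23, all negative.

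Day 6 replicate 2 was the highest of its group at 21 of the 23 cholesterol genes and at 11 of 13 fatty acid genes, and the summed level of the cholesterol list ran from 2310 to 3531 CPM within that group. HMGCS1, the first committed step, was at 486, 466 and 517 CPM in parental and 156, 342 and 178 CPM in day 6 libraries (-1.12 ± 0.20, adjusted p = 0.00026). INSIG1, a feedback regulator, was at 145, 148 and 128 against 48.3, 111 and 57.0 CPM (-0.96, adjusted p = 0.0012), with replicate 2 again closest to the parental range. Without that library 21 of the 23 genes were lower.

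Fatty acid synthesis moved with it: 10 of 13 genes were lower and none higher (median -0.44), against 2 lower with doxycycline (median -0.04). SCD, the stearoyl-CoA desaturase, averaged 1063 CPM in parental libraries and was at 423, 664 and 459 CPM in day 6 libraries (-1.04 ± 0.12, adjusted p = 1.9e-06). ACSS2, which makes acetyl-CoA from acetate, was at 84.6, 89.5 and 81.7 against 32.9, 43.8 and 33.2 CPM (-1.22, adjusted p = 1.6e-07). ELOVL6 and FADS2, for chain elongation and desaturation, gave -0.78 and -0.76. SREBF1, which encodes a regulator of this pathway, gave -0.61 (adjusted p = 0.0032). FASN (-0.16) and ACACA (-0.02) were not called.

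**Figure D4:**
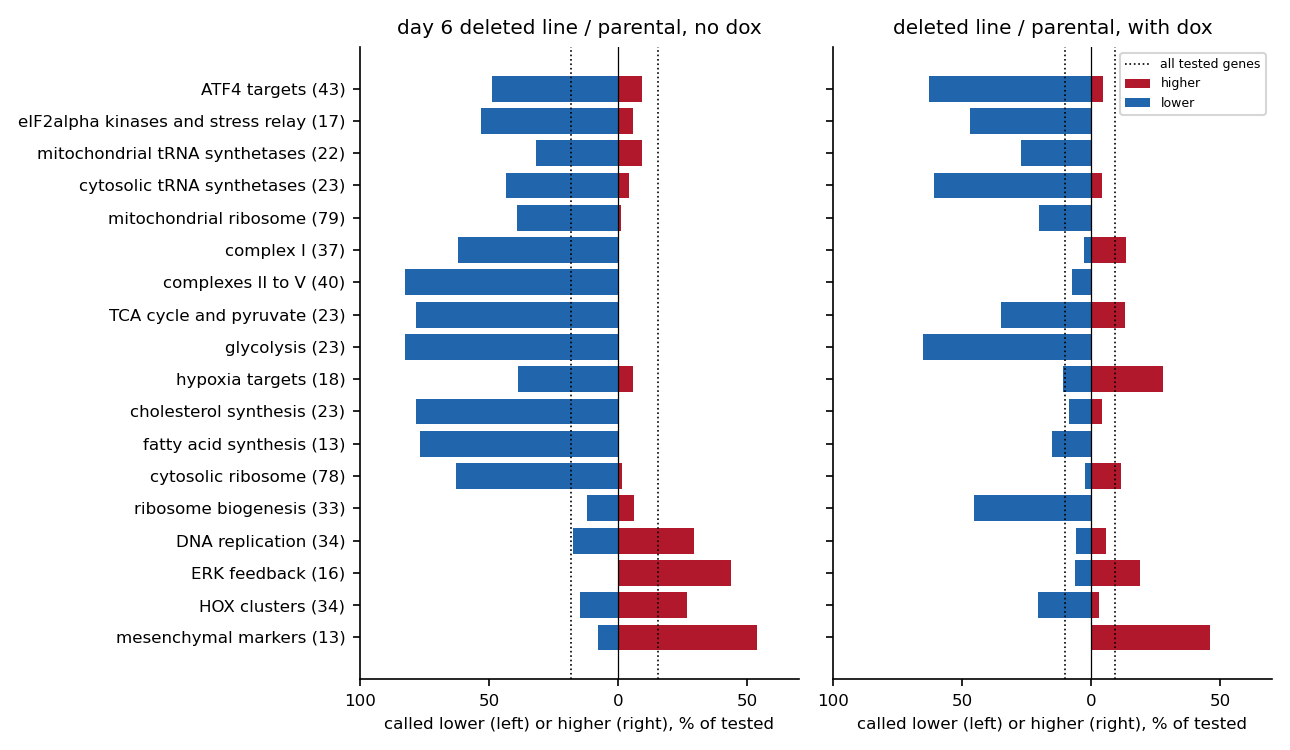
Share of tested members called lower (left, blue) or higher (right, red) in the deleted line, for day 6 without doxycycline and for the comparison with it, with list sizes in brackets. Dotted lines mark 18.2% lower and 15.6% higher (without the drug), and 9.97% and 9.32% (with it), over all tested genes. Complexes I to V, cholesterol and fatty acid synthesis and the cytosolic ribosome were lower mainly in the left panel, and ATF4 targets, cytosolic synthetases and glycolysis in both.

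Glycolysis was lower in both settings. Of 23 genes, 19 were lower and none higher at day 6 (median -0.41), and 15 lower and none higher with doxycycline (median -0.28). PGK1 was at 876, 896 and 993 against 592, 555 and 560 CPM (-0.69 ± 0.06, adjusted p = 8.9e-08, and -0.29 with doxycycline). LDHA, which makes lactate, gave -0.57 and -0.23. The glucose transporter gene SLC2A3 was at 20.7, 21.1 and 23.9 against 6.06, 7.51 and 6.18 CPM (-1.74, and -1.11 with doxycycline), whereas SLC2A1 gave 0.26 (adjusted p = 0.090). Of 18 hypoxia targets, 1 was higher and 7 lower (median -0.19), where 15.6% and 18.2% of all tested genes were. BNIP3, a mitophagy receptor, was at 136, 126 and 142 against 70.9, 70.1 and 65.7 CPM (-0.97 ± 0.06, adjusted p = 1.6e-09). With doxycycline 5 hypoxia targets were higher and 2 lower.

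At a set of nutrient-responsive genes the parental libraries without doxycycline stood apart from all other groups shown. TXNIP (chromosome 1, 145992435 to 145996579, minus strand), an arrestin-like inhibitor of glucose uptake that the glucose-sensing factor MondoA induces, was at 180, 148 and 186 CPM there and at 18.3, 19.2 and 17.6 CPM at day 6. It averaged 18.4 CPM in the parental and 25.2 CPM in the deleted line with doxycycline. The line difference was -3.22 ± 0.17 (adjusted p = 1.7e-10) without and 0.46 with the drug, and the difference of -3.68 was called (adjusted p = 3.1e-08). ARRDC4, its close relative, was at 34.5, 31.0 and 31.0 against 8.73, 7.11 and 7.56 CPM (-2.04), with 11.1 and 10.6 CPM in parental and deleted line with the drug.

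KLF10 (-1.21), the hypoxia targets STC1 (-3.12) and P4HA1 (-0.85), and the glycolytic ALDOC (-2.21) and PFKFB4 (-1.35) had the same shape. ALDOC, for example, was at 68.3, 70 and 82.4 CPM in parental libraries without the drug and 14.3, 18.9 and 14.5 CPM at day 6, against means of 14.7 and 16.3 CPM in the parental and deleted line with it. The time these parental cells had spent without doxycycline is not given, and it cannot be told apart from the line in this comparison. Of 9 genes of the MondoA list, which holds the factors MLXIP, MLX and MLXIPL (none called) beside their targets, 1 was higher and 4 lower, and with doxycycline 5 and 2. ARRDC3, the one higher, was at 32.4, 26.9 and 33.1 against 74.6, 99.2 and 75.6 CPM (1.43 ± 0.10, adjusted p = 8.3e-09) and was also higher with doxycycline (1.06).

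Cytosolic ribosomal protein genes were lower at 49 of 78 and higher at 1 (median -0.28). With doxycycline 9 were higher and 2 lower (median 0.08), and the difference was called lower at 47. RPS13 was at 400, 336 and 335 against 241, 245 and 226 CPM (-0.59 ± 0.09, adjusted p = 7.6e-05), and RPL13A averaged 2717 against 2029 CPM (-0.42). RPS20 (-0.53) and RPL21 (-0.46) were lower too. The 1 higher, RPS10 (0.41, adjusted p = 0.031), lost its call without parental replicate 1 (0.32), parental replicate 2 (0.43), day 6 replicate 1 (0.34) or day 6 replicate 3 (0.42), and lies in a readthrough locus where counting is uncertain. The ribosome biogenesis list, which also holds MYC and the pyrimidine synthesis enzyme CAD, had 2 of 33 higher, CAD among them (0.62), and 4 lower (median 0.04), against 15 lower with the drug. Both day 6 counts lay below the 15.6% and 18.2% of all tested genes. With the drug 9.97% of all tested genes were lower.

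Among 34 DNA replication genes, 10 were higher and 6 lower (median 0.00), the latter close to the 18.2% of all tested genes. With doxycycline 2 were higher and 2 lower. MCM2, a subunit of the replicative helicase, was at 338, 384 and 318 against 535, 531 and 516 CPM (0.605 ± 0.065, adjusted p = 1.2e-06, and 0.21 with doxycycline), and MCM5 gave 0.53. CDC45 (-0.32) and RRM1 (-0.31) were lower. POLD1 (0.35) lost its call with the GC, span and length trend removed (0.01). POLE2 (-0.24) and POLA1 (-0.28) lost theirs without single libraries, POLE2 without parental replicate 1 (-0.19), day 6 replicate 2 (-0.20) or day 6 replicate 3 (-0.22), and POLA1 without parental replicate 3 (-0.22) or day 6 replicate 2 (-0.23).

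Feedback targets of ERK signalling that were called were higher. Of 16 genes that growth factor signalling induces, 7 were higher and none lower (median 0.32), and 3 and 1 with doxycycline. Over all tested genes the shares were 15.6% and 18.2%, and 9.32% and 9.97% with doxycycline. EGR1 (chromosome 5, 138465479 to 138469303, plus strand), an immediate early factor, was at 0.912, 1.43 and 1.11 against 10.5, 6.01 and 10.5 CPM (2.96 ± 0.24, adjusted p = 3.3e-08). Its line difference with doxycycline was 1.69, and the difference between them was called (1.27, adjusted p = 0.015). The phosphatase genes DUSP4 (1.07) and DUSP6 (1.63) and PHLDA1 (1.06) were higher as well, DUSP4 from 3.43 to 4.05 up to 7.87 to 8.13 CPM and at 0.00 with the drug. DUSP6 averaged 0.304 CPM in parental and 0.947 CPM in day 6 libraries. SPRY4, also among the higher (2.19), averaged 0.0505 and 0.238 CPM, so both genes were under 1 CPM in both groups. SPRY2, a receptor signalling inhibitor, gave -0.31 and was not called, and was lower with doxycycline (-0.62).

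Genes of cell identity differed in both directions. Of 9 tested haematopoietic markers (16 listed), 3 were higher and 3 lower, where 15.6% and 18.2% of all tested genes were. RUNX1, a regulator of blood stem cells, was at 5.69, 5.84 and 5.89 against 1.93, 1.71 and 2.23 CPM (-1.57 ± 0.17, adjusted p = 9.9e-07), and gave -1.76 with doxycycline. GATA2 was at 28 to 32.5 against 47.5 to 48.6 CPM (0.69), and TAL1 gave 0.63. KIT gave -0.37. MYB (-0.19, adjusted p = 0.030) lost its call under several settings, among them parental replicate 1 left out (-0.16), parental replicate 2 (-0.19), day 6 replicate 1 (-0.14) and day 6 replicate 3 (-0.17). Of the 16 markers, 10 were under 1 CPM on average in both groups and 5 had 0 counts in all 6 libraries. The summed level of the 9 tested was 143.9 to 147.9 CPM in parental and 143.8 to 149.2 CPM in day 6 libraries. HAP1 cells are known to have lost most blood features of their parent line.

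Mesenchymal markers were higher at 7 of 13 tested (16 listed) and lower at 1 (median 0.48), and 6 were higher and none lower with doxycycline. The shares over all tested genes were 15.6% and 18.2%, and 9.32% and 9.97% with doxycycline. VIM, the intermediate filament vimentin, was at 433, 434 and 401 against 611, 591 and 591 CPM (0.50 ± 0.08, adjusted p = 6.1e-05). ACTA2 (0.84), SPARC (0.80) and COL1A1 (0.79), for actin and secreted matrix, were higher too. TAGLN (-0.64, adjusted p = 0.031) was the lower one and lost its call without any single library of the 6 except parental replicate 3. CDH2 (0.095), FN1 (-0.13), ZEB1 (0.10), S100A4 (0.64) and SNAI2 (-0.79) were not called. The summed level of the 13 tested was 633.8 to 666.8 CPM in parental and 867.8 to 884.2 CPM in day 6 libraries. VIM alone made up most of these sums, with means of 422.9 CPM in parental and 597.7 CPM in day 6 libraries. Of 6 tested epithelial markers (10 listed), 3 were higher and none lower, EPCAM (1.02), KRT8 (0.66) and KRT18 (0.43), and with doxycycline none was higher and 1 lower.

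HOX genes, which record position along the body axis, were higher at 9 and lower at 5 of 34 (median 0.25), where 15.6% and 18.2% of all tested genes were. With doxycycline 1 was higher and 7 lower (median -0.12). Without the drug, removing the GC, span and length trends left 7 higher and 6 lower (median 0.13). Leaving out parental replicate 3 gave 7 higher and 5 lower of 35 (median 0.17). HOXC9 was at 2.16, 2.62 and 1.77 against 0.0479, 0.176 and 0.255 CPM (-3.73 ± 0.46, adjusted p = 6.1e-06), a near-complete loss also seen with doxycycline (-5.78). HOXC10 (-0.94), HOXC13 (-0.63) and HOXD13 (-0.45) were lower. The call of HOXC13 was lost without parental replicate 2 (-0.48). HOXB3 (0.79), HOXD4 (0.86), HOXB2 (0.75) and HOXA3 (0.46) were higher, and HOXD4 and HOXB2 were lowest in parental replicate 3 of all 6 libraries. Imprinted genes, expressed from 1 parental allele, were higher at 6 and lower at 2 of 18 (15.6% and 18.2% of all tested genes). With doxycycline they were higher at 5 and lower at 2. IGF2 was at 0.304, 0.230 and 0.129 against 0.886, 0.779 and 0.874 CPM (1.93 ± 0.31, adjusted p = 8.9e-05), and MKRN3 at 0.755 to 1.04 against 0.192 to 0.285 CPM (-1.92, and -2.03 with the drug). SGCE (-0.21, adjusted p = 0.015) had overlapping groups. It gave 0.04 with the GC, span and length trend removed, and lost its call without parental replicate 1 (-0.17), day 6 replicate 1 (-0.18) or day 6 replicate 3 (-0.16).

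Genes of chromosome 3 were higher as a block. Over 845 expressed genes of this chromosome the median log2 fold change was 0.11, with 266 called higher and 114 lower. Medians of the other chromosomes ran from -0.15 (X) to 0.11 (19). With doxycycline chromosome 3 stood at 0.22 with 338 higher and 29 lower, and the others between -0.04 and 0.03. All 17 windows of 10 Mb on chromosome 3 had a positive median in both comparisons, against 70 and 100 of the 237 windows elsewhere. Chromosome 19 lost its shift once the GC, span and length trends were removed (-0.01) and chromosome 3 did not (0.17).

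The same shift was visible library by library. Each gene's deviation was taken from its mean over the parental libraries with and without doxycycline, so parental values lie near 0 in part by construction. The median deviation of chromosome 3 genes, less the median of the other chromosomes, was -0.01 to 0.02 in the parental libraries without doxycycline. It was 0.14 to 0.16 in the day 6 libraries. Deleted-line libraries with doxycycline gave 0.19 to 0.24, those of day 3 gave 0.31 and those of day 9 gave 0.19 to 0.21, so all deleted-line libraries lay above all parental ones. In the 10 Mb window of chromosome 3 with the highest median (0.20), the abundant genes NUP210, a nuclear pore protein, and VHL were higher (0.58 and 0.17), while RPL32 and FANCD2 gave -0.04 and 0.06. FANCD2 became a call without parental replicate 3 (0.16, adjusted p = 0.048) or with the GC, span and length trend removed (0.19, adjusted p = 0.023). VHL lost its call without parental replicate 1 (0.19), parental replicate 3 (0.16), day 6 replicate 1 (0.15) or day 6 replicate 2 (0.18). Windows on chromosomes 22, 20 and 19 had higher day 6 medians (0.24, 0.22 and 0.21), with -0.04, 0.06 and -0.01 in the comparison with doxycycline. DNA copy number was not measured in these files.

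**Figure D5:**
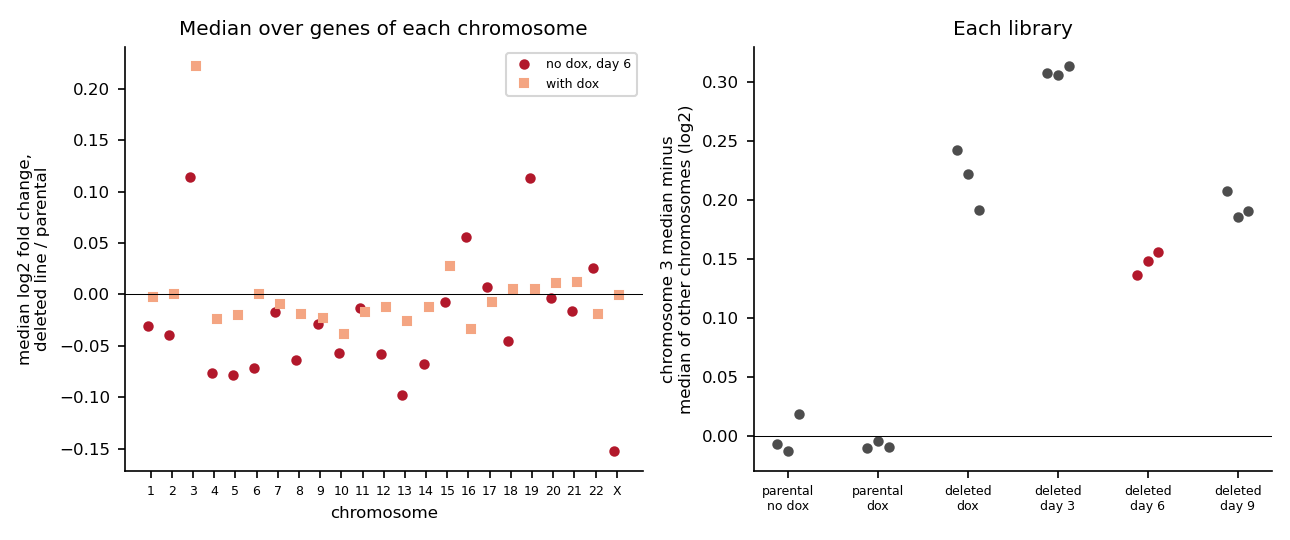
Left, median log2 fold change of the deleted over the parental line for each chromosome, without (circles) and with doxycycline (squares). Right, chromosome 3 median less the median of the other chromosomes in each library (points, 3 per group), as deviations from the parental means. It lies between -0.01 and 0.02 in all parental and between 0.14 and 0.31 in all deleted-line libraries.

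Gene span, the length from start to end of a gene with its introns, was weakly related to the difference. Across 14649 genes Spearman's rho with span was 0.05 without and 0.06 with doxycycline. Only genes over 300 kb stood apart, with a median of 0.20 over 521 genes, against -0.04 to 0.04 in the shorter classes.

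Genes whose line difference depended most on the drug setting closed the account. LGR6, a receptor for R-spondins, was at 0.271, 0.208 and 0.248 CPM in parental and 3.75, 2.33 and 3.50 CPM in day 6 libraries (3.71 ± 0.47, adjusted p = 8.1e-06), against 0.09 with doxycycline. FSTL4 reversed, from 1.57 without to -2.58 with the drug. IL21R, a cytokine receptor, was at 7.46, 7.54 and 7.08 against 0.599, 0.647 and 0.501 CPM (-3.66 ± 0.36, adjusted p = 3.9e-07), against -1.22 with the drug. ALDH2, the mitochondrial aldehyde dehydrogenase, gave -1.61 (adjusted p = 0.016) and lost its call without parental replicate 3 (-1.40) or day 6 replicate 1 (-1.46).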

How the data were processed

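RNA from 18 HAP1 libraries was sequenced as 151-bp pairs, per the labels' protocols. The authors deposited tables of raw counts per gene. GRCh38, featureCounts (Subread), HISAT2, cutadapt 2.3, SAMtools and DESeq2 appear in the submitters' processing notes. Count columns are tagged HISAT2_RF, per the file headers. No source used here gives the annotation release or the strand setting of the counting. The 3 tables held 59251 genes, 16 broken over several lines and rejoined, and 6 library columns present in 2 tables were identical. The 37 genes of the mitochondrial chromosome had 0 counts.

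Low genes were removed with filterByExpr, libraries were scaled with TMM, and edgeR 4.0.16 (R 4.3.3) fitted its quasi-likelihood model, 1 mean for each group, to all 18 libraries, which share 1 estimate of spread. Code was tested on simulated data. Alternatives were DESeq2 1.42.0, RLE factors, library size alone, no low-count filter, a replicate block, span, length and GC trends removed (loess span 0.3, GC from GENCODE transcripts for 84.0% of tested genes), only the groups compared, a 5 CPM minimum for chromosomes, and each library left out. The GC alternative was chosen after seeing the data.

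The comparison and all 38 gene lists were chosen with earlier results of these data known. Named genes are SARS2 with its neighbours, ATF4, ATF5, DDIT3, GDF15 and NEAT1, the 10 largest differences each way among called genes of at least 1 CPM without overlap, up to 4 called members per direction of 19 lists described in depth, the 6 largest shared and the 6 most drug-dependent differences each way, and the most abundant genes of a named window. Other members, and the zinc finger cluster and on-off rules, were picked after values were seen. NEAT1 gave 0.16 (adjusted p = 0.52).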

Additional observations from a re-analysis of the deposited data

Results flagged for a closer look

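For the named genes below, the line difference without doxycycline at day 6 differed from the line difference with it, by edgeR's quasi-likelihood test of that difference with Benjamini-Hochberg adjustment over all genes. In brackets is the former less the latter on the log2 scale, so a positive value is a higher deleted-over-parental ratio at day 6. The widest gaps towards a higher day 6 value were at MEIOB (5.50), S100A6 (5.19), ZNF141 (4.85), FSTL4 (4.15), CD33 (3.76), LGR6 (3.62), SPNS2 (3.36), PRR35 (2.77) and LOC107984906 (2.3). Next came GDF15 (1.80), CADPS (1.59), DLK1 (1.58), ISLR2 (1.51), INHBE (1.43), EGR1 (1.27), DUSP4 (1.07), RPS10 (0.95) and HOXD4 (0.77). Smaller positive gaps belonged to GTPBP3 (0.74), HOXD13 (0.65), POLRMT (0.61), MRPL12 (0.59), GATA2 (0.54), MCM5 (0.51), QRSL1 (0.49), ACTA2 (0.48) and MCM2 (0.40). The list of positive gaps ended with POLD1 (0.34) and POLA2 (0.32).

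In the other direction the widest gaps were at TXNIP (-3.68), ALDH2 (-2.52), LOC124903747 (-2.45), IL21R (-2.44), STC1 (-2.43), LOC105377885 (-2.43), ALDOC (-2.36), ARRDC4 (-1.97) and KLF10 (-1.75). They were followed by PFKFB4 (-1.62), SYNDIG1 (-1.57), ACSS2 (-1.37), FDPS (-1.09), TAGLN (-1.04), SCD (-0.94), P4HA1 (-0.89), ELOVL6 (-0.80) and DHCR7 (-0.80). Negative gaps of intermediate size were found at FASTKD5 (-0.79), MTERF1 (-0.79), ATP5MJ (-0.77), NDUFB6 (-0.74), BNIP3 (-0.73), LSS (-0.64), RPS13 (-0.64), NSDHL (-0.63) and NDUFA2 (-0.59). Others were NDUFS5 (-0.55), MRPL48 (-0.55), RPS20 (-0.55), SPARC (-0.51), FADS2 (-0.51), RPL21 (-0.50), KIT (-0.49), RPL13A (-0.46) and MTRF1 (-0.45). Among the smaller ones were MRPL39 (-0.41), PGK1 (-0.41), NDUFA8 (-0.37), MRPS18A (-0.37), UQCRC2 (-0.36), ATP5MC3 (-0.33), RRM1 (-0.31), PRORP (-0.31) and GATC (-0.27). These 74 genes came from the 138 named and tested, chosen in part for this gap, and over all tested genes 12.6% passed the same test. Values for S100A6, ZNF141 and MEIOB rest on groups with 0 counts and depend on the prior count. Which of day 6 without the drug, the parental cells without it, or the cells with it sets each gap was not tested.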

How the results depend on the processing

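Of 1932 repeats of a named gene's difference under another setting, 1862 kept the direction and side of the threshold, 65 lost a call, 4 gained one and 1 changed sign, SGCE at 0.038 with GC, span and length trends removed. Calls were lost somewhere at 16 of the 129 named genes called. Calls between the lines without doxycycline numbered 7776 with DESeq2, 7295 with library size alone, 7441 with the GC, span and length trends removed, and 7166 with a replicate block, against 7306. Same-numbered libraries of the 2 groups did not deviate together (correlations 0.017, -0.034 and 0.037), so the replicate numbers were not taken as pairs. With only the groups compared in the fit, 5702 genes were called without and 7336 with doxycycline, the reverse of the order with all 18 libraries, and 15 complex I and 20 mitochondrial ribosome genes were lower. The chromosome 3 median was 0.15 in that fit, 0.15 with library size alone and 0.17 with the GC trend removed. The cause of these shifts was not tested. Leaving out 1 library at a time gave 5688 to 7135 calls without and 2593 to 3846 with doxycycline, 1625 to 3301 for the difference, and 1510 to 2317 shared in the same direction. The difference fell to 1729, 1645, 1725 and 1625 without parental replicates 2 and 3 with doxycycline, deleted-line replicate 2 with it, or day 6 replicate 3, and calls with doxycycline to 2657, 2593 and 2627 without parental replicate 3 or deleted-line replicates 1 or 2 with it. Lower members ranged from 17 to 20 for ATF4 targets, 16 to 21 for cholesterol synthesis, 16 to 19 for glycolysis, 15 to 23 for complex I, 25 to 34 for complexes II to V, 18 to 30 for the mitochondrial ribosome and 36 to 54 for the cytosolic ribosome. The chromosome 3 median ranged from 0.0972 to 0.128. Genes near 0 counts are limited by depth.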
